A study of Mus musculus with 8 samples.

Results

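The 8 genes described here encode receptors of the tumour necrosis factor (TNF) receptor superfamily: Tnfrsf1a, Tnfrsf1b, Tnfrsf4, Tnfrsf8, Tnfrsf9, Tnfrsf18, Tnfrsf26 and Cd27. They were chosen by name with earlier results of these data known. All 8 were found among the 19826 genes of the deposited table. Regulatory T cells (Treg), a suppressive class of CD4 T cell defined by the transcription factor Foxp3, were compared between mice with and without a floxed Pdpk1 gene. Pdpk1 encodes PDK1, the kinase that activates AKT and related kinases below phosphoinositide 3-kinase. Both groups were C57BL/6 mice heterozygous for a Foxp3 allele that drives YFP and Cre recombinase (Foxp3 YFP-Cre/+). The 4 libraries called WT were from mice that were Pdpk1 +/+, and the 4 libraries labelled Pdpk1 KO, called KO-labelled below, were from mice that were Pdpk1 FL/FL. CD4+ YFP+ cells were sorted from spleen and peripheral lymph nodes straight after isolation, with no treatment and no culture. Deletion in this design is limited to cells in which the Foxp3 allele with Cre is active, and each heterozygous animal also has Treg without Cre. Whether a library stands for a single mouse is not in the labels, so each p-value reflects only how far these libraries spread.

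Receptors of this family bind trimeric ligands of the TNF family and recruit TRAF adaptors, which activate NF-kB and MAP kinases. Those with a death domain can also recruit adaptors that lead to caspase activation. On T cells several of them act as costimulators that appear or increase after antigen receptor signalling, and Treg are known for high levels of GITR, OX40 and TNFR2.

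Recovered depth ranged from 17448095 to 26299577 reads per library, and a value of 0 allowed up to 3 reads, or 2.56 to 3.38 normalized counts. Of 13847 genes tested, 611 (4.41%) were higher and 700 (5.06%) were lower in the KO-labelled libraries. Pdpk1 (chr17:24073680-24150924) had normalized counts of 2599.6, 2374, 1995 and 1923 in WT and 2505, 1900.1, 1872 and 1656 in the KO-labelled libraries. These ranges overlapped (log2 change -0.17, exact two-sided permutation p = 0.286), and since the value sums all exons of the gene it does not check the labels. Foxp3 was at 5086 ± 740 in WT and 5355 ± 743 in the KO-labelled libraries (mean ± SD of 4 libraries each, exact permutation p = 0.6). Treg and CD4 T cell markers summed to between 78115 and 88699 normalized counts in WT and between 72834 and 80737 in the other group. Of the 8, 1 was higher (Il2ra, log2 change 0.63, limma adjusted p = 0.00114) and 1 lower (Ikzf2, -1.13, 4.45e-06). An unadjusted p under 0.05 was found for 6 of them, 1 higher and 5 lower. The share of all genes under that unadjusted level was not taken, so such counts here and below have no background beside them. DESeq2 called 5 of the 8, and 13.2% of 13310 genes, a smaller base than the 13847 of limma and edgeR. Of 17 macrophage and monocyte markers tested (19 listed), 8 were higher and 1 was lower by limma. Beside these stand 4.41% of all tested genes called higher and 5.06% called lower. DESeq2 called 6 of the 17 and edgeR 8, in either direction. The sum of the 19 listed markers ranged from 1589.9 to 3074 in WT and from 2079 to 6958 in the KO-labelled libraries. Axl, the 1 that was lower, fell from 1130 ± 146 to 598 ± 217 (SD, n = 4 each) and is part of each sum. The 3 libraries highest in the mean log2 level of these markers, Axl included, were WT replicate 2 and KO-labelled replicates 2 and 3. Csf1r, C1qa and Adgre1 were above 0 in every library, and Vsig4 was at 0 in most. Of 3 B cell markers tested, 2 were lower, beside 5.06% of all tested genes. The B cell marker sums were 443 to 574 in WT and 172 to 311 in the other group, while Ms4a1 was at 0 in most libraries. None of the CD8 T cell, NK cell or dendritic cell markers passed the limma test (4 tested, 1 of them at an unadjusted p under 0.05, 0 called by DESeq2 or edgeR).

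Of the 8 receptor transcripts, 4 were lower and 1 was higher in the KO-labelled libraries. Tnfrsf8, Tnfrsf9, Tnfrsf4 and Tnfrsf1b fell, Tnfrsf26 rose, and Tnfrsf18, Tnfrsf1a and Cd27 did not pass the threshold of 0.05 on the adjusted p from limma. The 5 called genes stand beside a background of 9.47% of all tested genes called in either direction, the 4 lower ones beside 5.06% called lower and the 1 higher one beside 4.41% called higher. All 8 passed the filter on low values. The median log2 change was -0.65 over the 8 genes and -0.01 over all genes tested. In 6 of the 8 genes the groups did not overlap, a property that 15.3% of all tested genes had. The 8 were chosen with earlier results of these data known, so these shares and medians are a description and not a test. In sorted bulk cells, fewer cells carrying a transcript and less transcript per cell cannot be told apart.

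**Figure D1:**
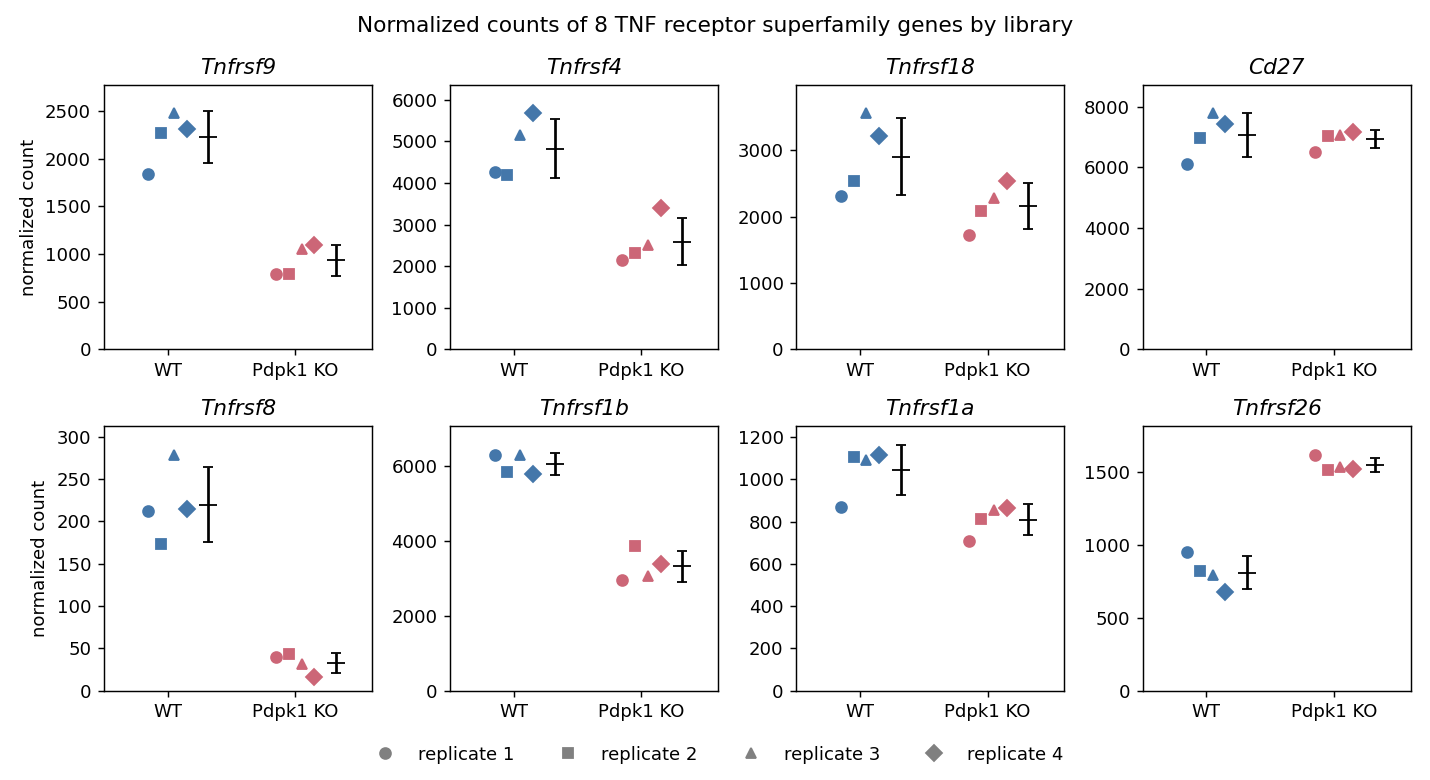
Normalized count (vertical axis, from 0) of each of the 8 genes in the 4 WT libraries (blue) and the 4 KO-labelled (red), with a marker shape for each replicate number and the mean ± SD beside the points. The red points lie below the blue ones for Tnfrsf9, Tnfrsf4, Tnfrsf8 and Tnfrsf1b, just below them for Tnfrsf1a, and above them for Tnfrsf26. For Tnfrsf18 only red replicate 4 reaches into the blue range, and for Cd27 all red points lie inside it.

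The first receptors considered are costimulators of T cells. Tnfrsf9 (ENSMUSG00000028965, chr4:150914562-150946102, plus strand) encodes 4-1BB, which is induced on T cells after activation and binds the product of Tnfsf9. Its normalized counts were 1835, 2267, 2475 and 2309.8 in WT and 791, 787, 1053 and 1097 in the KO-labelled libraries. Every WT library was above every library of the other group, and WT replicate 1 was the lowest of its own. The means were 2222 ± 273 and 932 ± 166 (SD, n = 4 each), and the log2 change was -1.26 ± 0.13 (SE, 95% interval -1.55 to -0.98, limma adjusted p = 2.41e-05), or 2.40-fold lower.

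Tnfrsf4 (ENSMUSG00000029075, chr4:156013843-156016612, plus strand) encodes OX40, a costimulator that sustains T cell survival after activation. It was counted at 4276, 4194, 5156 and 5678 in WT and at 2139, 2318, 2514 and 3395 in the KO-labelled libraries. The groups did not overlap, and KO-labelled replicate 4 stood nearest to WT. The fall was from 4826 ± 716 to 2591 ± 557 (SD, n = 4 each), which is -0.91 ± 0.14 on the log2 scale (SE, 95% interval -1.20 to -0.61, limma adjusted p = 0.000627) or 1.88-fold.

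Tnfrsf18 (ENSMUSG00000041954, chr4:156026164-156028895, plus strand) encodes GITR, a costimulator that resting Treg already carry at a high level. Counts of 2304, 2531, 3554 and 3219 in WT stood against 1721, 2086, 2282 and 2531 in the KO-labelled libraries. WT replicate 2 lay at the level of KO-labelled replicate 4, the highest of its group, and WT replicate 1 was below it, so the ranges overlapped. The means were 2902 ± 583 and 2155 ± 342 (SD, n = 4 each), and the log2 change was -0.42 ± 0.14 (SE, 95% interval -0.73 to -0.11), and the limma adjusted p of 0.0834 missed the threshold. DESeq2 on the recovered reads gave an adjusted p of 0.041, in a fit that called 13.2% of 13310 genes. Limma without WT replicate 1 gave an adjusted p of 0.0296 with a log2 change of -0.52, and called 8.15% of all tested genes. The call for Tnfrsf18 thus depends on the tool and on that library. Of the exon bases of Tnfrsf18, 27.2% also lie in exons of the opposite-strand gene Gm16008, whose own value was 29.3 ± 17.6 in WT and 19.8 ± 23.6 in the KO-labelled libraries (SD, n = 4 each). Without a stated strand setting, reads of the shared bases cannot be told apart.

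Cd27 (ENSMUSG00000030336, chr6:125232622-125237010, minus strand) encodes a receptor for the product of Cd70 that naive and memory T cells carry without activation. Its normalized counts were 6095, 6949, 7778 and 7409.6 in WT and 6509.9, 7027, 7047 and 7169 in the KO-labelled libraries. The 4 KO-labelled libraries all fell inside the WT range. Means of 7058 ± 726 and 6938 ± 292 (SD, n = 4 each) gave a log2 change of -0.02 ± 0.09 (SE, 95% interval -0.22 to 0.18, limma adjusted p = 0.929). The interval leaves out changes of the size seen for Tnfrsf4 and Tnfrsf9.

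The largest fold among the 8 genes belonged to Tnfrsf8 (ENSMUSG00000028602, chr4:145267137-145315164, minus strand). It encodes CD30, a receptor of activated lymphocytes that binds the product of Tnfsf8. Its normalized counts were 212, 173, 279 and 215 in WT and 40.0, 42.7, 31.4 and 16.2 in the KO-labelled libraries. The groups were far apart, and KO-labelled replicate 4, the highest of its group for Tnfrsf9 and Tnfrsf4, was the lowest for Tnfrsf8. The values rest on 166 to 303 recovered reads per library in WT and 19 to 43 in the other group. The means of 219.8 ± 43.9 and 32.6 ± 11.9 (SD, n = 4 each) differed by -2.78 ± 0.34 on the log2 scale (SE, 95% interval -3.50 to -2.07, limma adjusted p = 8.06e-05), or 6.88-fold.

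Both receptors for TNF itself were measured. Tnfrsf1b (ENSMUSG00000028599, chr4:145213463-145246870, minus strand) encodes TNFR2, which lacks a death domain and responds best to TNF held on the membrane. WT libraries had 6301, 5845, 6308 and 5777 normalized counts, and the KO-labelled libraries had 2961, 3869, 3075 and 3382. The replicates lay close together and the groups were well apart. The fall from 6058 ± 286 to 3322 ± 406 (SD, n = 4 each) was -0.87 ± 0.10 on the log2 scale (SE, 95% interval -1.08 to -0.67, limma adjusted p = 3.85e-05), or 1.83-fold.

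Tnfrsf1a (ENSMUSG00000030341, chr6:125349362-125362484, plus strand) encodes TNFR1, the receptor with a death domain that most cell types carry. It had 869, 1107, 1090.0 and 1118 normalized counts in WT and 707, 811, 857 and 864 in the KO-labelled libraries. The groups were just apart, since WT replicate 1 exceeded the highest library of the other group by a small margin. The means were 1046 ± 118 and 809 ± 72.4 (SD, n = 4 each), and the log2 change was -0.37 ± 0.12 (SE, 95% interval -0.62 to -0.11) with a limma adjusted p of 0.0679. DESeq2 gave an adjusted p of 0.0377, and leaving out WT replicate 1 gave -0.45 with a limma adjusted p of 0.0264.

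Tnfrsf26 moved the other way. The gene (ENSMUSG00000045362, chr7:143607659-143628722, minus strand) lies in a mouse cluster with Tnfrsf22 and Tnfrsf23, which encode decoy receptors for TRAIL, and has no well-established ligand. It was counted at 950.3, 817, 793 and 674 in WT and at 1616, 1511, 1530.2 and 1516 in the KO-labelled libraries. The KO-labelled libraries were nearly equal and all above WT. The rise from 809 ± 113 to 1544 ± 49.2 (SD, n = 4 each) was 0.94 ± 0.11 on the log2 scale (SE, 95% interval 0.70 to 1.18, limma adjusted p = 7.60e-05), or 1.92-fold. The antisense gene E230032D23Rik overlaps 3.33% of the exon bases of Tnfrsf26 and was at 30.7 ± 11.6 in WT and 57.8 ± 13.2 in the other group (SD, n = 4 each).

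The macrophage markers moved with the groups, so the 8 genes were also fitted with the mean macrophage marker level as a covariate, and again with WT replicate 2 and KO-labelled replicates 2 and 3 left out. The same 5 genes passed the limma threshold in both fits, where 4.77% and 3.41% of all tested genes were called. With the covariate the log2 changes were -2.89 for Tnfrsf8, -1.31 for Tnfrsf9, -0.92 for Tnfrsf1b, -0.82 for Tnfrsf4 and 1.02 for Tnfrsf26. Without the 3 libraries they were -3.14, -1.23, -0.95, -0.89 and 0.97 in the same order. The weakest of these was Tnfrsf4 without the 3 libraries, with a limma adjusted p of 0.0301.

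Levels of different receptors were set side by side as normalized counts per kb of exon. In WT, Tnfrsf4 (3536 ± 524 per kb) and Cd27 (3032 ± 312 per kb) were highest and overlapped between libraries. Tnfrsf18 (1904 ± 383 per kb) and Tnfrsf1b (1587 ± 74.9 per kb) came next and overlapped with each other. Below them, each apart from its neighbours, were Tnfrsf9 (816 ± 100.2 per kb), Tnfrsf1a (404 ± 45.7 per kb), Tnfrsf26 (251 ± 35.2 per kb) and Tnfrsf8 (63.5 ± 12.7 per kb; SD, n = 4 for each). The order was different in the KO-labelled libraries. Cd27 stood alone at the top with 2980.4 ± 126 per kb, above Tnfrsf4 (1898 ± 408 per kb) and Tnfrsf18 (1414 ± 224 per kb), which overlapped. Tnfrsf1b followed at 870.0 ± 106 per kb, and Tnfrsf26 at 479.7 ± 15.3 per kb now stood above Tnfrsf9 (342 ± 61.0 per kb) and Tnfrsf1a (312 ± 27.9 per kb), which overlapped. Tnfrsf8 stayed lowest at 9.43 ± 3.45 per kb.

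**Figure D2:**
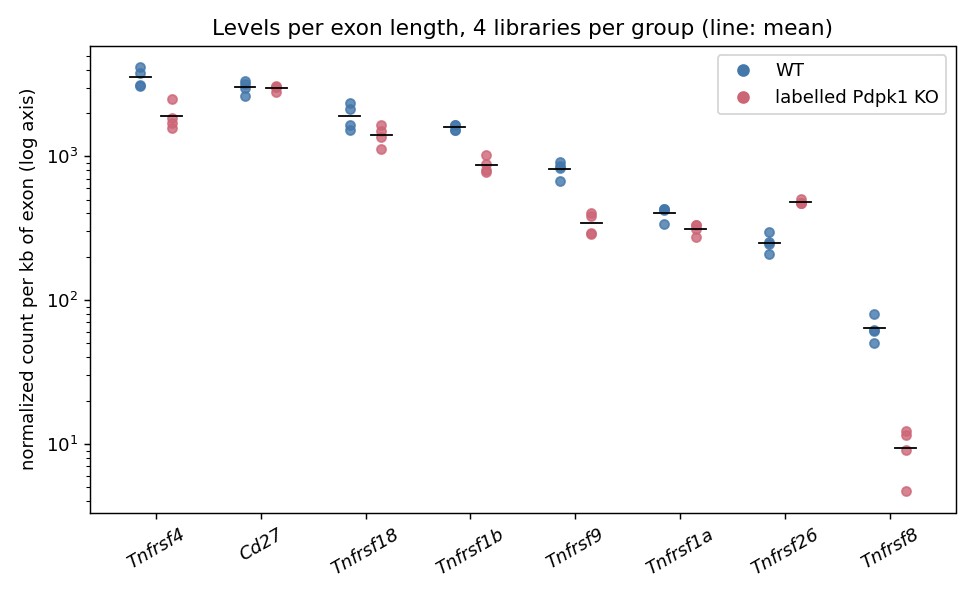
Normalized count per kb of exon on a log axis for the 8 genes, ordered by their WT mean, with 4 points per group (WT blue, KO-labelled red) and a line at each mean. Tnfrsf26 is below Tnfrsf9 and Tnfrsf1a in WT and above both in the KO-labelled libraries.

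The 8 receptors together took 0.116%, 0.113%, 0.125% and 0.129% of all recovered reads in WT replicates 1 to 4, and 0.0773%, 0.0788%, 0.0819% and 0.0890% in the KO-labelled libraries. Single libraries differed between genes. KO-labelled replicate 4 was the highest of its group for Tnfrsf9, Tnfrsf4, Tnfrsf18, Tnfrsf1a and Cd27. KO-labelled replicate 1 was the lowest of its group for Tnfrsf1b, Tnfrsf4, Tnfrsf18, Tnfrsf1a and Cd27. WT replicate 1 was the lowest WT library for Tnfrsf9, Tnfrsf18, Tnfrsf1a and Cd27 and the highest for Tnfrsf26.

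The 8 genes lie on chromosomes 4, 6 and 7. Chromosome 4 holds 5 of them, of which 4 were lower, beside 5.06% of all tested genes called lower. Chromosome 6 holds 2, neither past the threshold, and chromosome 7 holds Tnfrsf26. Tnfrsf1b and Tnfrsf8 are neighbours separated by 20266 bp, and Tnfrsf4 and Tnfrsf18 by 9551 bp. The nearest tested protein-coding genes that are not among the 8 number 12. Of these, 0 passed the limma threshold, beside 9.47% of all tested genes called in either direction. An unadjusted p under 0.05 was found for 0 of them, and DESeq2 and edgeR called 0. So few genes cannot tell a count of 0 from that share. Scnn1a, Plekhg6 and Ttll10 were also low, with WT means of 12.9, 17.8 and 21.9 normalized counts. Ttll10 had a log2 change of -1.73 ± 0.95 (SE, limma adjusted p = 0.306) and did not pass. Sdf4, which ends 232 bp from Tnfrsf4, was at 8353 ± 720.0 in WT and 8391 ± 628 in the KO-labelled libraries (SD, n = 4 each, log2 change 0.01). Park7, 124 bp from Tnfrsf9, had a log2 change of 0.15 (limma adjusted p = 0.523), and Vps13d, 18457 bp from Tnfrsf1b, one of 0.06 (limma adjusted p = 0.831).

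For 5 pairs of neighbouring or related receptors, chosen after the values had been seen, the log2 ratio of their normalized counts is given as a description, with no test. The ratio of Tnfrsf8 to its neighbour Tnfrsf1b was -4.80 ± 0.24 in WT and -6.71 ± 0.63 in the KO-labelled libraries. The ratio of Tnfrsf4 to its neighbour Tnfrsf18 was 0.74 ± 0.15 and 0.26 ± 0.14. The groups did not overlap in either ratio. For Tnfrsf1b over Tnfrsf1a, the 2 TNF receptors, the ratio was 2.54 ± 0.22 in WT and 2.03 ± 0.17 in the other group, and for Tnfrsf1a over Cd27 it was -2.75 ± 0.08 and -3.10 ± 0.07, again without overlap. The ratio of Tnfrsf26 to its neighbour Tnfrsf22 was 0.50 ± 0.42 and 1.39 ± 0.25 (SD, n = 4 for each ratio and group), and here the groups overlapped.

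Sequences before the start sites of 3 of the 4 genes that fell are given because they show which short motifs are present there. RefSeq promoter windows on GRCm38.p6, covering 250 bases before an annotated start, were matched for 7 of the 8 genes, with 8 windows in all. Capitals mark motif matches found on either strand, in the order of each gene's own strand. In Tnfrsf1b (chr4:145246871-145247120, minus strand) they mark a STAT motif that begins 181 bases before the start. In Tnfrsf8 (chr4:145315165-145315414, minus strand) they mark an NF-kB motif 168 bases, an AP-1 motif 132 bases and an E-box 119 bases before the start. For Tnfrsf9 a stretch of 30 bases around an NF-kB match 43 bases before its second start is given (chr4:150927947-150927976, plus strand). The window before the first start of Tnfrsf9 held no motif of the set. Of the second window, 81 bases lie in annotated exons of Tnfrsf9 itself.
Tnfrsf1b: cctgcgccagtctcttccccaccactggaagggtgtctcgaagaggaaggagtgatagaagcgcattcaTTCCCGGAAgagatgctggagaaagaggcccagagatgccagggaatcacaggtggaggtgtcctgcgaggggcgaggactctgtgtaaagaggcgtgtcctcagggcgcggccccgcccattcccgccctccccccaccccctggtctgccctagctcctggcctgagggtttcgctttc
Tnfrsf8: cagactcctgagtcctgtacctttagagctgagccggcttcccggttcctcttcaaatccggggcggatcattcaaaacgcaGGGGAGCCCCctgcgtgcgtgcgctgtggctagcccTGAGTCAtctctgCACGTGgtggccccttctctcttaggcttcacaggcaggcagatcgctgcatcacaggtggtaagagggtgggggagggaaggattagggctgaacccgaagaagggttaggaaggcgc
Tnfrsf9: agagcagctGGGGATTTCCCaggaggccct
The motif for NF-kB was found in 2 of the 8 windows and in 3.9% of 32851 mouse windows of the same length. The AP-1 motif TGANTCA was in 2 (6.75% of all windows), the STAT motif TTCNNNGAA in 4 (7.02%) and the E-box CACGTG in 2 (6.02%). The FoxO motif GTAAACA (3.17% of all windows) and the Runx motif TGTGGT (14.0%) were in none of the 8. The second NF-kB match in Tnfrsf9 overlaps the first by all but 1 base, and the other motifs did not overlap each other. The STAT motif was also present for Tnfrsf1a and Tnfrsf18, which did not pass the threshold. No motif of the set was found in all 4 genes that fell. A match is a description of these letters and not a measured site.

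Other genes of the family were read from the same fit. Of 20 other receptor genes looked for, 14 were in the table and 11 passed the filter on low values. None of the 11 passed the limma threshold, and 2 had an unadjusted p under 0.05. DESeq2 and edgeR each called 0. Over all tested genes, limma called 9.47% and edgeR 9.06%, and DESeq2 called 13.2% of 13310 genes. The median log2 change of the 11 was 0.05. Tnfrsf25, the death receptor DR3 of T cells, was at 2101 ± 266 in WT and 1869 ± 194 in the KO-labelled libraries (log2 change -0.17, limma adjusted p = 0.413). Fas, the death receptor CD95, was at 906 ± 92.0 and 1044 ± 150 (log2 change 0.20, limma adjusted p = 0.377). Tnfrsf22, next to Tnfrsf26, was at 574 ± 94.9 and 595 ± 101 (log2 change 0.05, limma adjusted p = 0.891), although 27.4% of its 50-base stretches also occur in other genes, so its count is uncertain. Tnfrsf13b, which encodes the BAFF and APRIL receptor TACI of B cells, was at 1586 ± 192 and 1288 ± 83.0 (log2 change -0.29, limma adjusted p = 0.103). Of the 3 B cell markers tested, Cd79b and Cd22 were lower in the same libraries, while Cd79a had a log2 change of 0.73 and did not pass, and Ms4a1 was at 0 in most libraries of a sort for CD4+ YFP+ cells. Their part in this value was not tested. Tnfrsf21 was low, at 8.24 ± 9.96 in WT and 35.7 ± 17.1 in the KO-labelled libraries (SD, n = 4 for each gene and group, limma adjusted p = 0.0748). It passed without WT replicate 4 (0.0333) or KO-labelled replicate 4 (0.045).

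**Figure D3:**
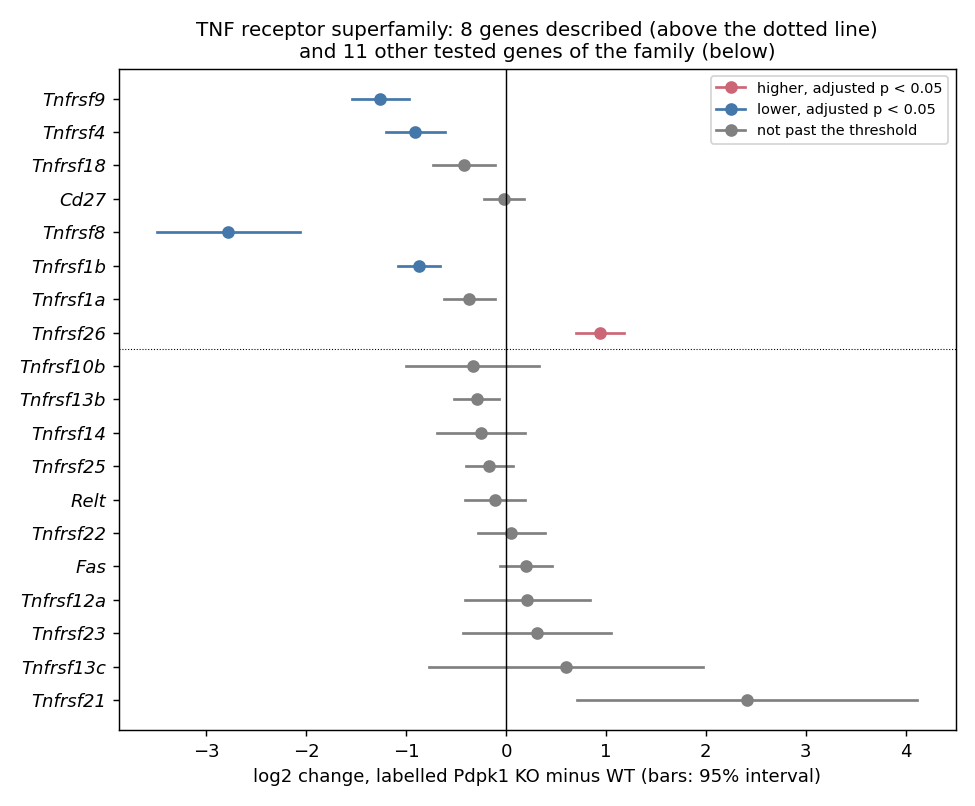
Log2 change (KO-labelled minus WT, horizontal axis) with its 95% interval for the 8 genes described (above the dotted line) and 11 other tested genes of the family (below it), red for higher, blue for lower and grey for genes not past an adjusted p of 0.05. Coloured points occur only above the line, with Tnfrsf8 at -2.78 farthest from 0 and Tnfrsf26 at 0.94 the red point. The 8 genes above the line were chosen with earlier results of these data known.

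Of 7 ligands of the 8 receptors, 5 were in the table and all 5 were tested. Here 1 rose, beside 4.41% of all tested genes called higher, and 4 did not pass. Tnfsf8, which encodes the ligand of CD30, had normalized counts of 1799, 1740, 1567 and 1300 in WT and 2944, 2771, 2486 and 2459 in the KO-labelled libraries. The groups did not overlap, and the direction was opposite to that of its receptor Tnfrsf8. The means were 1601 ± 224 and 2665 ± 234 (SD, n = 4 each), and the log2 change was 0.74 ± 0.11 (SE, limma adjusted p = 0.000629), and 0.75 with the macrophage covariate (adjusted p = 0.0082). Tnf, the ligand of both TNF receptors, was at 396 ± 148 and 189.8 ± 88.5, and overlapped between groups (SD, n = 4 each, log2 change -1.07, limma adjusted p = 0.0597). Its log2 change was -0.59 with the macrophage covariate and -0.49 after the 3 libraries were left out. DESeq2 gave it an adjusted p of 0.0137, and limma 0.0205 without KO-labelled replicate 4 and 0.00932 without WT replicate 3. Lta, which encodes lymphotoxin alpha, had a log2 change of -0.47 (limma adjusted p = 0.12, and 0.0152 without KO-labelled replicate 4). Tnfsf4 and Tnfsf9, the ligands of OX40 and 4-1BB, were low, at 14.9 ± 7.12 and 40.4 ± 19.0 in WT against 43.9 ± 33.5 and 30.3 ± 18.0 (SD, n = 4 each, limma adjusted p = 0.312 and 0.635).

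Of 23 adaptors and ubiquitin enzymes that act below these receptors, all tested, 2 were higher, 3 were lower and 18 did not pass. Beside these stand 4.41% of all tested genes called higher and 5.06% called lower. The median log2 change of the 23 was -0.05. Traf6, a ubiquitin ligase that activates the IKK complex, rose from 1669 ± 163 to 2620 ± 235 (log2 change 0.65, limma adjusted p = 0.000753). Casp8, the caspase of death receptor complexes, rose from 5452 ± 208 to 6893 ± 565 (log2 change 0.34, limma adjusted p = 0.0249). Traf3, which restrains non-canonical NF-kB signalling, fell from 2360 ± 193 to 1769 ± 167 (log2 change -0.42, limma adjusted p = 0.0154). Tank, a TRAF-binding adaptor, fell from 2268 ± 46.8 to 1742 ± 158 (SD, n = 4 for each gene and group, log2 change -0.39, limma adjusted p = 0.0156). Traf6 alone passed with the macrophage covariate, and also after the 3 libraries were left out, fits that call fewer of all tested genes (4.77% and 3.41%). The log2 changes in these fits were 0.38 and 0.41 for Casp8, -0.35 and -0.31 for Traf3, -0.34 and -0.38 for Tank, and -0.67 and -0.47 for Tnip2. Leaving out KO-labelled replicate 2 took Traf3 to a limma adjusted p of 0.0505 and Tank to 0.0512, and left 0 lower genes by limma. Traf3 was also at 0.0513 without WT replicate 2. Tnip2, an A20-binding inhibitor of NF-kB, fell by 0.62 on the log2 scale (limma adjusted p = 0.0273), and lost its call without any 1 of WT replicates 2 and 4 or KO-labelled replicates 2, 3 and 4 (0.0508 to 0.0985). Casp8 lost its call without any 1 of WT replicates 1, 2 and 4 or KO-labelled replicates 3 and 4, with limma adjusted p between 0.0529 and 0.0686.

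Of 19 kinases and NF-kB subunits or inhibitors, 4 were lower, 0 were higher and 15 did not pass, with a median log2 change of 0.02. The shares over all tested genes were 5.06% lower and 4.41% higher. The 4 that fell encode 3 IkB proteins and 1 NF-kB subunit, and none is a kinase. Nfkbie, the inhibitor IkB epsilon, had 1260.3, 1220, 1055 and 1204 normalized counts in WT and 706, 584, 725 and 647 in the KO-labelled libraries. It fell from 1185 ± 89.7 to 665 ± 63.7 (log2 change -0.83 ± 0.11 SE, limma adjusted p = 0.00023). Nfkbid, a nuclear IkB protein that T cells use in Treg development, fell from 1244 ± 224 to 675 ± 207 (log2 change -0.91, limma adjusted p = 0.00579). Bcl3, another nuclear IkB protein, fell by 0.44 on the log2 scale (limma adjusted p = 0.01005), and Relb, the subunit of the non-canonical pathway, by 0.33 (limma adjusted p = 0.0395). Nfkbie passed both with the macrophage covariate (limma adjusted p = 0.0066) and after the 3 libraries were left out (0.0174), and it was the only 1 of the 19 to do so. In the same fits the log2 changes were -0.37 and -0.39 for Bcl3 and -0.36 and -0.31 for Relb, close to the values above. Nfkbid moved further, to -0.74 and -0.50. Relb lost its call without any 1 of 7 libraries, all but KO-labelled replicate 4, with limma adjusted p between 0.0504 and 0.101.

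**Figure D4:**
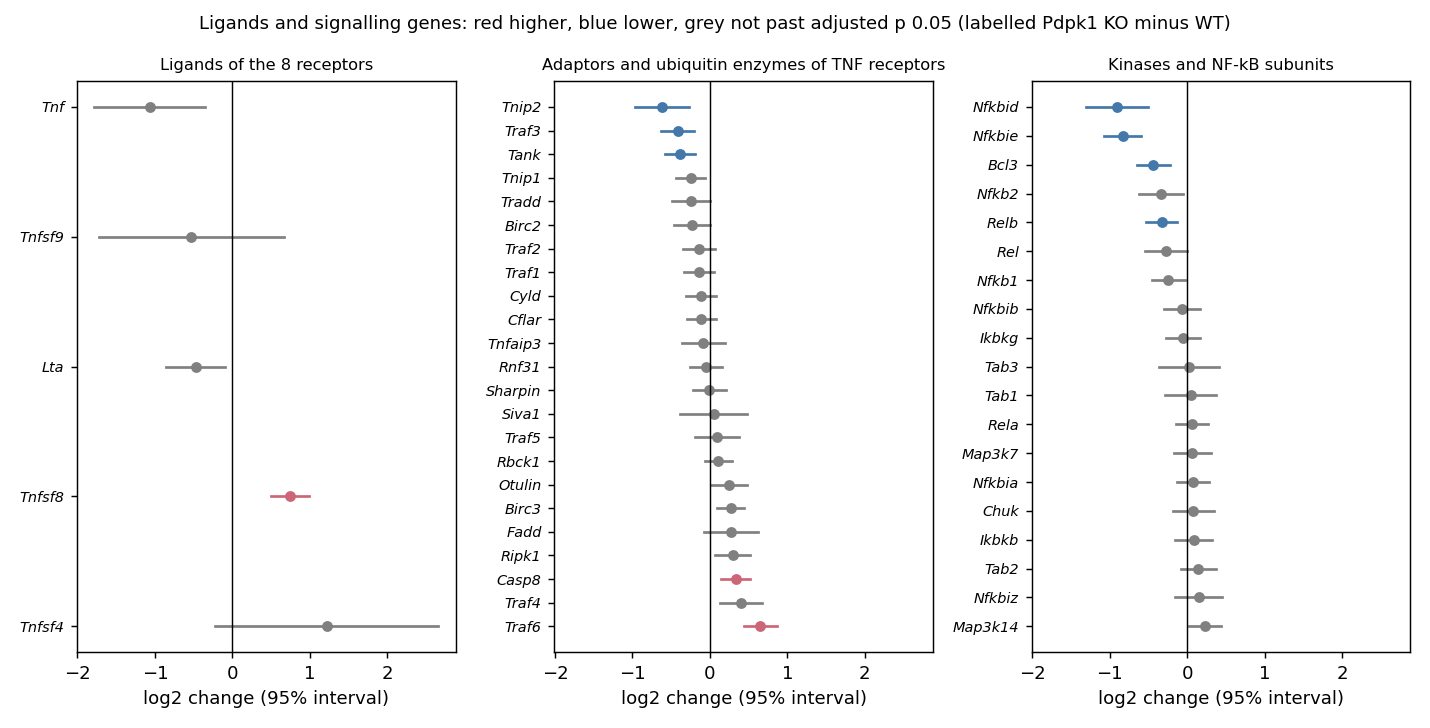
Log2 change with 95% interval for the tested ligands (left), adaptors and ubiquitin enzymes (middle) and kinases and NF-kB genes (right), red for higher, blue for lower and grey for not past an adjusted p of 0.05. Tnfsf8, Traf6 and Casp8 are red, and Traf3, Tank, Tnip2, Nfkbie, Nfkbid, Bcl3 and Relb are blue.

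The genes whose values followed the receptors most closely over the 8 libraries were taken by Pearson's r of log2(normalized count + 1), as a description. Much of each r comes from the group difference that the genes share. For Tnfrsf9, the called gene with the smallest adjusted p among those that fell, these were Ebpl (r = 0.984), Cpe (r = 0.983) and Ankmy2 (r = 0.983). Cpe, which encodes carboxypeptidase E, was at 126 ± 25.6 in WT and 22.9 ± 11.4 in the KO-labelled libraries. For Tnfrsf26 they were Cep68 (r = 0.992), Dgka (r = 0.984) and Kirrel (r = 0.981). Dgka, which encodes the diacylglycerol kinase that limits T cell receptor signalling, was at 17948 ± 1079 and 24208 ± 1196 (SD, n = 4 each).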

How the data were processed

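Per the labels' protocols, RNA of the sorted cells came from the RNeasy Plus Micro kit, and polyadenylated RNA was made into libraries by NEBNext Ultra II RNA. The authors deposited 1 signal value per gene and library, a gene read count divided by a DESeq2 size factor and called a normalized count here. Tools named in the submitters' processing notes, without roles, are featureCounts (Subread 2.0.1), STAR 2.7.6a, Trimmomatic 0.39, DESeq2 1.21 and SAMtools 1.11, with the build GRCm38. Not given in the sources used here are the strand setting, the annotation release and the treatment of multi-mapping reads.

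Whole reads were recovered from the step that 1 read is worth in a library: 100% of values came out whole within a tolerance of 0.001. No replicates agreed within sampling noise (lowest chi-square per degree of freedom 15.0). The 95% intervals of log2 changes come from the spread between libraries, and the floor of 3 reads covers counting error only, since PCR copies are not marked. GENCODE M21 gave symbols for 19775 genes and none for 51. The smallest listed total was 11 reads. No gene row was left out of the totals.

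Genes with a normalized count of at least 10 in at least 4 of 8 libraries were tested (13847 kept, 5979 removed). Values of log2(normalized count + 1), which understate changes of low genes, were compared with limma 3.58.1 in R 4.3.3 (lmFit, then eBayes with trend), two-sided. P-values were adjusted over all tested genes by Benjamini-Hochberg, and the threshold was 0.05. Folds are from this scale. edgeR 4.0.16 (quasi-likelihood) and DESeq2 1.42.0 on the recovered reads were alternatives, and edgeR called 1254 genes. The steps were tested on simulated data. Pdpk1 and Foxp3 were compared by exact permutation tests over the 70 assignments.

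The 8 genes and the lists were chosen with earlier results of these data known. The genes named were the 8, Pdpk1 and Foxp3; up to 4 called genes per list with the smallest adjusted p, or the 2 highest where none passed; any tested gene of the family; and the 3 genes most like the leading gene in each direction, with a mean of at least 50. Ligands besides Tnfsf8, Tnip2, the markers Il2ra, Ikzf2 and Axl, the neighbouring and antisense genes, and the pairs were chosen after values were seen. Promoter sequences are from RefSeq on GRCm38.p6.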

Additional observations from a re-analysis of the deposited data

Results flagged for a closer look

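Tnfrsf1a in WT had 1 library far from the other 3: WT replicate 1 was at 869 normalized counts and the others at 1090.0, 1107 and 1118, so that its gap to the nearest was 0.888 of the range of the group. Of 42 groups of 4 libraries examined, this was the only 1 so marked, and chance marks about 1 in 20 groups.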

How the results depend on the processing

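Tnfrsf1b, Tnfrsf4, Tnfrsf8, Tnfrsf9 and Tnfrsf26 kept their direction and passed the threshold in all 19 alternatives. Their log2 changes ranged from -0.95 to -0.82, -1.05 to -0.82, -3.14 to -2.49, -1.35 to -1.19 and 0.86 to 1.02. Tnfrsf18 and Tnfrsf1a passed in 3 (DESeq2, the replicate block and without WT replicate 1). Cd27, never past the threshold, ranged from -0.088 to 0.029 when 1 library was left out, and Foxp3 from -0.0092 to 0.17.

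The labels do not say that replicate numbers pair the libraries, so the main fit took no pairs. To look for pairing, the mean of each gene in its group was subtracted, and the remaining deviations were correlated between WT and KO-labelled libraries. The deviations of same-numbered libraries correlated at 0.217, 0.092, 0.048 and 0.113. By this measure 6 of 8 libraries correlated best with their own number. Whether the numbers mark pairs is not known. The replicate block gave 1243 higher and 1292 lower genes, 18.3% of those tested. It added Tnfrsf18 (limma adjusted p = 0.00107) and Tnfrsf1a (0.0104) to the genes that fell, and called 1 other family gene lower (Tnfrsf13b, 0.0179), 2 ligands lower, 6 adaptors higher and 4 lower, and of the kinases and NF-kB genes 1 higher and 6 lower.

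The macrophage covariate gave 292 higher and 368 lower genes, and leaving out the 3 libraries highest in macrophage markers 167 and 305. DESeq2 gave 850 and 912. Leaving out 1 library gave between 389 (without WT replicate 4) and 588 higher genes, with 395 without KO-labelled replicate 3, and between 495 and 724 lower genes. It gave 1 to 3 higher and 0 to 3 lower adaptors, 3 to 5 lower kinases and NF-kB genes, 0 to 2 lower ligands and 0 to 1 higher genes of the other family. Quantile normalization called Tnfrsf21 higher (0.0484). The cause of these shifts was not tested. Of the 8 genes, Tnfrsf8 had the fewest reads.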
